A study of Mus musculus with 13 samples.

Results

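The interferon response genes described here are 49 mouse genes that cells switch on after contact with interferon, listed by symbol. The list was chosen with earlier results of these data known. All 49 were rows of the deposited expression table, and 48 had a mean of at least 0 log2 CPM (read counts scaled to library total, on the log2 scale) over 13 libraries and were tested, out of 24062 rows and 11867 tested genes. Ifit3 was below this minimum, with 0 to 6 reads per library. By role the 48 genes were 7 transcription factors and partners, 7 sensors and enzymes that bind foreign or double-stranded nucleic acid, 15 antiviral effectors, 9 genes of the ISG15, ubiquitin and ADP-ribosylation systems, 7 GTPases of the IRG and GBP families, and 3 genes of antigen presentation.

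RNA was sequenced from sorted LK cells, the bone marrow fraction that lacks lineage markers and Sca-1 and carries c-kit, which holds committed myeloid and erythroid progenitors. The cells came from chimeras: Boy/J mice were irradiated with 7.0 and 4.75 Gy, 3 h apart, and received marrow of 1 of 4 genotypes, so every group had been irradiated and transplanted. WT marrow was TIFAB+/+;miR-146a+/+ (3 libraries), TIFAB_KO was TIFAB-/-;miR-146a+/+ (3 libraries), miR-146a_KO was TIFAB+/+;miR-146a-/- (3 libraries) and dKO was TIFAB-/-;miR-146a-/- (4 libraries). The labels give an age of 2 to 5 months and 3 mice per group, fewer than the 4 dKO libraries. They do not tie each library to a mouse, so whether dKO libraries share a mouse is not known. The p-values therefore measure the spread between libraries and treat the 4 dKO libraries as independent. TIFAB is an inhibitor of the TRAF6 signalling adaptor, and miR-146a is a microRNA that represses Traf6 and Irak1. The study asked how loss of both changes progenitor gene regulation, and here the 4 groups were compared for the interferon response genes.

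Type I interferons bind the receptor IFNAR1 and IFNAR2 and, through the kinases JAK1 and TYK2, assemble the factor ISGF3, of which STAT2 and IRF9 are parts and which binds the interferon-stimulated response element (ISRE) in promoters. Interferon gamma acts through the gamma-activated site (GAS) in promoters, and strongly induces the IRG and GBP GTPases, which attack the vacuoles of intracellular pathogens. In bone marrow, interferon is known to push quiescent stem cells into cycle and, when prolonged, to impair them, and Irgm1 is known to be needed for normal stem cell function.

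The promoters of the GTPases are shown because these genes had the widest differences among the members. RefSeq promoter windows (build GRCm38.p6, from 250 bases before to 50 after a gene's start) were on hand for 38 of the 49 genes. The ISRE was searched as GAAA, any 2 bases and GAAA again, and the GAS as TTCNNNGAA, on both strands and with overlapping matches allowed. An ISRE match lay in 20 of the 38 genes (52.6%) against 1079 of 27025 genes with a window (3.99%), and a GAS match in 10 (26.3%) against 2582 (9.55%). All 6 GTPase genes with a window had an ISRE match and 3 had a GAS match. The lines below give 30 bases around the match, 5′ to 3′ on the strand that reads as the motif, with the motif in capitals. For comparison they include Stat2 and Isg15, members of other roles. The first motif base lay between -24 (Irgm1) and -222 (Stat2) relative to the RefSeq start. A match is a description of the letters and not a measured binding site.
Irgm1 (chr11:48871425-48871454, minus strand): tcaagaaataGAAACCGAAActgattctca
Irgm2 (chr11:58214903-58214932, plus strand): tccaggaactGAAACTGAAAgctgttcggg
Igtp (chr11:58199512-58199541, plus strand): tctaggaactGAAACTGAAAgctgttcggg
Gbp7 (chr3:142530273-142530302, minus strand): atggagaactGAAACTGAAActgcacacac
Gbp3 (chr3:142559989-142560018, minus strand): ctgggaaataGAAACTGAAActgtgtcctg
Gbp2 (chr3:142620594-142620623, minus strand): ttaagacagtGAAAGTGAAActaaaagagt
Stat2 (chr10:128270266-128270295, minus strand): ctagggaaagGAAACTGAAAccagggtgcg
Isg15 (chr4:156200871-156200900, minus strand): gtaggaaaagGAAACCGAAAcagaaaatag

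Libraries held 7.83 to 12.8 M reads assigned to genes. Ribosomal 45S RNA took 3.85 to 10.7% of them, most in TIFAB_KO replicate 3. Tifab stood at 5.31 to 5.63 log2 CPM in WT, while TIFAB_KO libraries had 3.17 to 3.69. Those of miR-146a_KO had 6.01 to 6.15 and those of dKO 1.72 to 3.46. Both groups with the TIFAB deletion therefore lay below both groups without it. The microRNA's own row, Mir146, had 0 reads in all 13 libraries and checks no label. Kit, which encodes the c-kit used in the sort, was at 8.08 to 8.84 log2 CPM. Ly6a, which encodes the Sca-1 sorted against and is itself interferon-inducible, was at -0.61 to 2.42. Libraries that stood apart were TIFAB_KO replicate 3, lowest of the 13 for 28.6% of all tested genes and for 8.33% of the members, and dKO replicate 3, highest for 14 of 48 members (29.2%, against 13.04% of all tested genes). Next was dKO replicate 1, highest for 11 members (22.9%, against 7.04% of all tested genes). WT replicate 1 was lowest for 13 members (27.1%, against 10.3% of all tested genes).

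No interferon response gene passed a Benjamini-Hochberg adjusted p of 0.05 (limma, over all 11867 genes) in any comparison. Very few genes of any kind did. The called shares of all tested genes were 0.0169% in TIFAB_KO minus WT, 0.0843% in miR-146a_KO minus WT, 0.0674% in dKO minus WT, 0.0337% in dKO minus TIFAB_KO, 0.0506% in dKO minus miR-146a_KO, 0.0843% in miR-146a_KO minus TIFAB_KO and 0% in the interaction. In the F test over the 4 groups, 0 members were called against 0.11% of all genes, and 9 of 48 had an unadjusted p under 0.05 against 12.8% of all genes. Under library quality weights 4 members were called in miR-146a_KO minus WT (1.79% of all genes) and 7 in dKO minus WT (6.67%), and a fit of only the 2 groups gave 5 in miR-146a_KO minus WT (0.75%). The values below are from the fit in which none passed, with their sizes and errors.

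Most members lay above WT in each knockout, by small amounts. In miR-146a_KO minus WT, 38 of 48 were above 0 with a median log2 difference of 0.22, while the median over all tested genes was 0.09. In dKO minus WT, 38 were above 0 with a median of 0.18 (all genes 0.08). In TIFAB_KO minus WT, 36 were above 0 with a median of 0.14 (all genes -0.01). These 3 comparisons share the WT libraries, and WT replicate 1 was the library with the lowest median deviation over the members, at -0.35. Scaling by trimmed mean of M values (TMM) brought the median of all genes to -0.01 in miR-146a_KO minus WT and -0.02 in dKO minus WT, and the members' medians there to 0.12 and 0.08. Without TIFAB_KO replicate 2 the members' median in TIFAB_KO minus WT was 0.01.

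At an unadjusted p under 0.05, 10 members were higher and 0 lower in miR-146a_KO minus WT, against 7.23% and 2.3% of all genes. In dKO minus WT, 13 were higher and 0 lower (9.7% and 4.36% of all genes), and in TIFAB_KO minus WT 2 were higher and 0 lower (2.99% and 2.12% of all genes). The dKO count was 5 without WT replicate 1 and 8 without dKO replicate 1. Without miR-146a_KO replicate 3 the miR-146a_KO count was 6, and the TIFAB_KO count was 0 without TIFAB_KO replicate 2 and 4 without TIFAB_KO replicate 1. Groups lay wholly above WT for 11 members in miR-146a_KO (15.5% of all genes), 8 in dKO (8.9%) and 3 in TIFAB_KO (5.21%). For 0 members did a knockout group lie wholly below WT, against 6.4%, 3.62% and 3.31% of all genes in the same order.

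**Figure D1:**
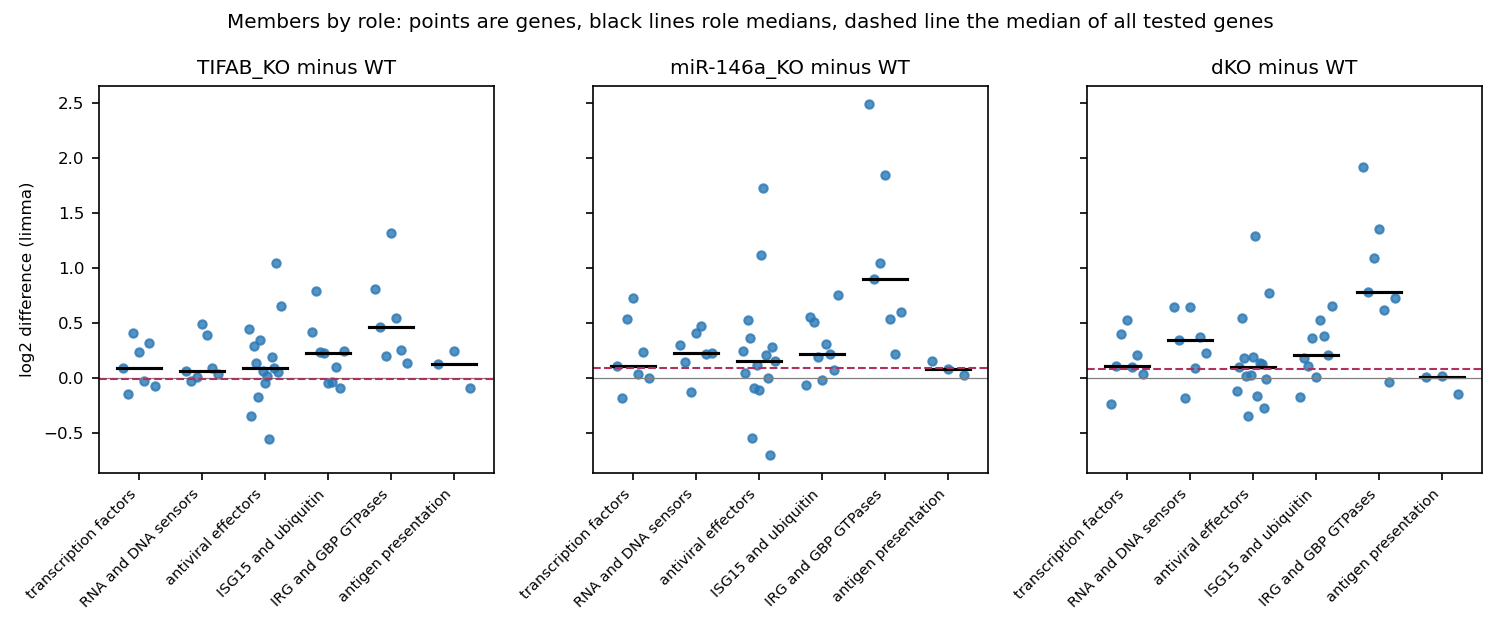
Limma log2 difference from WT of each of the 48 members (points) by role, for the 3 knockout groups; black lines are role medians and the dashed line the median of all tested genes. The GTPases have the highest median in each panel, at 0.46, 0.90 and 0.78.

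The differences were widest among the GTPases, whose 7 members are Irgm1, Irgm2, Igtp, Iigp1, Gbp2, Gbp3 and Gbp7. All 7 were above WT in miR-146a_KO (median log2 difference 0.90), 6 of 7 in dKO (median 0.78) and all 7 in TIFAB_KO (median 0.46). With these genes set aside, the other 41 members had medians of 0.19, 0.12 and 0.09 in the same order. Of the 6 roles, the GTPases also varied most between libraries of a group. Their median within-group SD was 0.62 log2 CPM, against 0.33 over the 48 members and 0.29 over all tested genes. In dKO minus WT their median was 0.50 without dKO replicate 3 and 1.00 without dKO replicate 4. In TIFAB_KO minus WT it was 0.16 without TIFAB_KO replicate 2 and 0.76 without TIFAB_KO replicate 1.

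Irgm2 encodes an IRG protein that regulates other GTPases of its family. It was at 2.16, 1.64 and 1.90 log2 CPM in WT replicates 1 to 3 and at 2.38, 4.16 and 3.11 in TIFAB_KO. It was at 3.28, 3.85 and 4.09 in miR-146a_KO and at 3.30, 2.64, 4.53 and 2.55 in dKO replicates 1 to 4. Every knockout library lay above every WT library, and the 3 knockout groups overlapped one another. The log2 difference from WT was 1.84 ± 0.46 (SE) in miR-146a_KO (adjusted p 0.283, limma), 1.35 ± 0.43 in dKO (adjusted p 0.220) and 1.32 ± 0.46 in TIFAB_KO (adjusted p 0.722). Irgm2 (chr11:58199618-58222782, plus strand, GENCODE M21 on mm10) overlaps Igtp (chr11:58199556-58207591) on the same strand, so reads may have been split between them. The RefSeq start of the Irgm2 promoter shown above lies past the end of this Igtp span.

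Irgm1 encodes the regulatory IRG protein studied in stem cells. Its level was 4.31, 4.45 and 4.96 log2 CPM in WT, and 4.26, 5.31 and 4.75 in TIFAB_KO. In miR-146a_KO it was 5.34, 5.85 and 5.64, and in dKO 5.77, 5.81, 6.17 and 4.90. All miR-146a_KO libraries were above all WT and TIFAB_KO libraries, while dKO replicate 4 fell inside the WT range. The log2 difference was 1.09 ± 0.27 in dKO minus WT (limma adjusted p 0.164), 1.04 ± 0.29 in miR-146a_KO minus WT (0.401), 0.20 ± 0.29 in TIFAB_KO minus WT (0.999) and 0.89 ± 0.27 in dKO minus TIFAB_KO (0.155). Without dKO replicate 4 the difference between dKO and WT was 1.34 ± 0.24 with a limma adjusted p of 0.0103. Gbp7, Ifih1 and Trim30a were called in that fit too, in which 2.83% of all genes were called. In dKO minus TIFAB_KO without that library, Irgm1, Ifih1 and Trim30a were called, against 2.34% of all genes.

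Iigp1 encodes an effector IRG protein that coats pathogen vacuoles. Its reads were few in WT, 5 to 11 per library, so each value has wide counting error. It was at -0.06, -0.84 and 0.11 log2 CPM in WT, with -0.61, 1.87 and 0.37 in TIFAB_KO. In miR-146a_KO it was at 1.73, 2.45 and 2.51, and the dKO libraries had 1.11, 0.74, 4.28 and 0.49. The miR-146a_KO and dKO libraries were all above WT, and dKO replicate 3 stood far above the other dKO libraries. The log2 difference from WT was 2.49 ± 0.79 in miR-146a_KO (limma adjusted p 0.414), 1.92 ± 0.74 in dKO (0.278) and 0.81 ± 0.79 in TIFAB_KO (0.999). For Iigp1 the dKO difference was 1.04 without dKO replicate 3. The TIFAB_KO difference became 0.14 when TIFAB_KO replicate 2 was left out, was 1.38 with replicate 1 left out, and 0.52 with WT replicate 2 left out. Igtp, a regulatory IRG gene, was at 3.997, 4.36 and 4.28 log2 CPM in WT, with 4.09, 5.27 and 4.67 in TIFAB_KO. In miR-146a_KO it had 4.78, 5.35 and 5.21, and the dKO libraries 4.89, 4.47, 6.30 and 4.30. Only the miR-146a_KO libraries of Igtp all lay above WT, by a log2 difference of 0.90 ± 0.38.

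Gbp7 encodes a guanylate-binding protein and lies with Gbp2 and Gbp3 on chromosome 3. It was at 6.16, 6.30 and 6.45 log2 CPM in WT, and at 6.25, 6.71 and 6.37 in TIFAB_KO. It was at 6.78, 7.08 and 6.86 in miR-146a_KO, and at 6.75, 7.07, 7.70 and 6.59 in dKO. Both groups without miR-146a lay wholly above WT, and TIFAB_KO overlapped WT. The log2 difference from WT was 0.72 ± 0.21 in dKO (limma adjusted p 0.211), 0.60 ± 0.22 in miR-146a_KO (0.475) and 0.14 ± 0.22 in TIFAB_KO (0.999), and dKO minus TIFAB_KO was 0.59 ± 0.21 (0.181). Gbp2 overlapped WT in every knockout group, with log2 differences of 0.53 to 0.62, and so did Gbp3, with -0.04 to 0.25. GBP and IRG genes are families of near copies, and the sources used here do not say how reads were shared among copies.

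**Figure D2:**
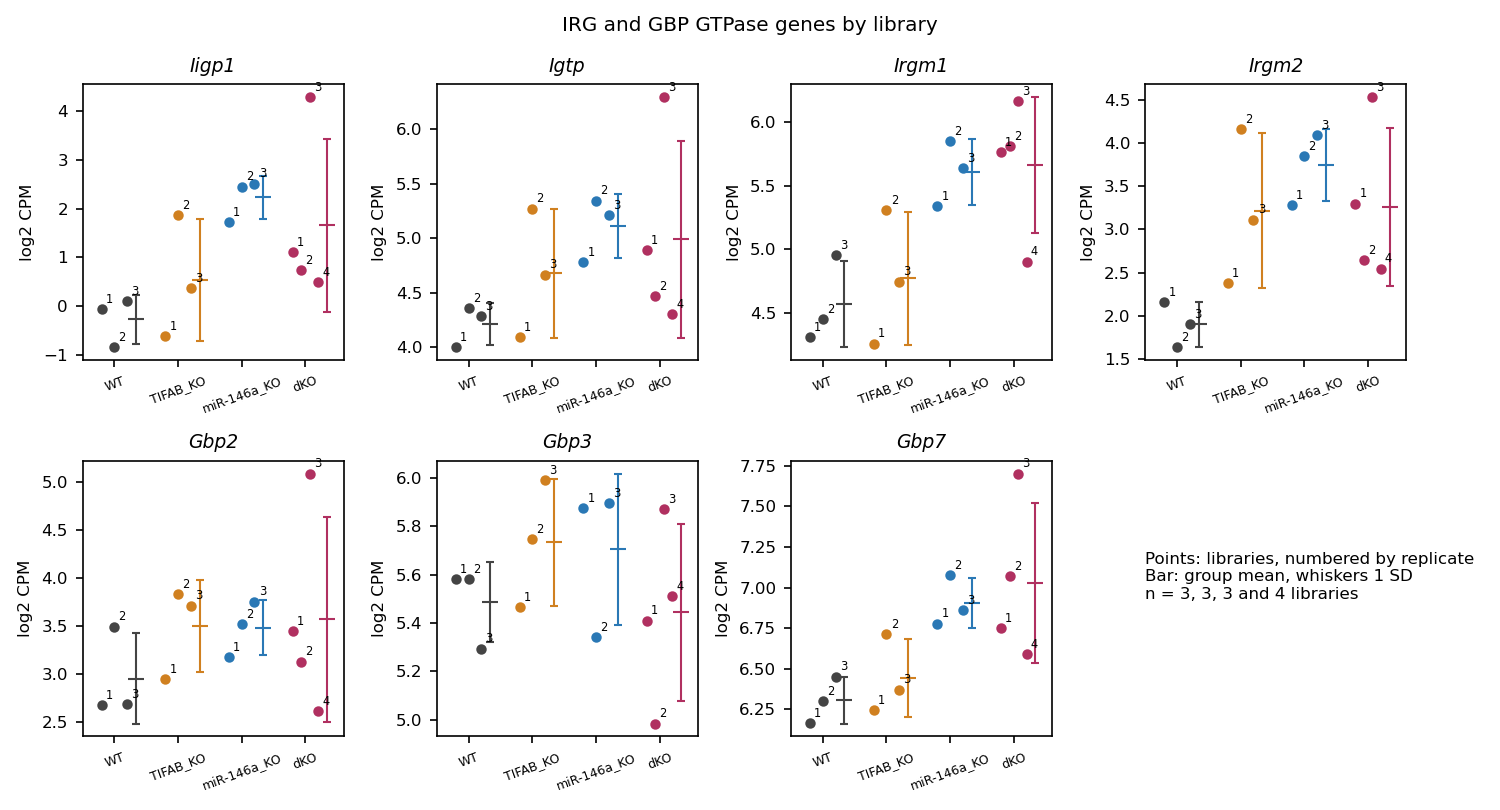
Log2 CPM of the 7 GTPase genes in each library (points, numbered by replicate), with the group mean and 1 SD (bar and whiskers; 3, 3, 3 and 4 libraries). Replicate 3 is the highest dKO library in all 7 panels and replicate 1 the lowest TIFAB_KO library in all 7.

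Among the transcription factors, Stat2 and Irf9 encode parts of ISGF3. Stat2 was at 4.21, 4.60 and 4.68 log2 CPM in WT, with 4.81, 4.99 and 4.40 in TIFAB_KO. The levels were 4.78, 5.46 and 5.45 in miR-146a_KO, with 5.17, 5.10, 5.05 and 4.76 in dKO. The miR-146a_KO and dKO libraries all lay above WT, while TIFAB_KO overlapped it. The Stat2 log2 difference from WT was 0.73 ± 0.22 in miR-146a_KO (limma adjusted p 0.408), 0.52 ± 0.21 in dKO (0.283) and 0.24 ± 0.22 in TIFAB_KO (0.999). Irf9 was at 4.52, 4.95 and 5.10 in WT, and TIFAB_KO libraries stood at 5.13, 5.39 and 5.26. With miR-146a deleted it was at 5.33, 5.28 and 5.56, and with both deleted at 5.60, 5.05, 5.17 and 5.21. Both single knockouts were wholly above WT for Irf9, and 1 dKO library, replicate 2, fell inside the WT range. The Irf9 log2 differences were 0.41 ± 0.19, 0.54 ± 0.19 and 0.40 ± 0.18 in TIFAB_KO, miR-146a_KO and dKO, with limma adjusted p of 0.968, 0.457 and 0.328.

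Irf7, the factor that amplifies type I interferon production, showed no such separation. It was at 1.61, 2.30 and 2.31 log2 CPM in WT, while TIFAB_KO libraries had 2.08, 1.84 and 1.86. Those of miR-146a_KO had 1.68, 1.94 and 2.05 and those of dKO 2.67, 1.87, 2.36 and 1.82. All groups overlapped WT, and the log2 differences were -0.15 ± 0.34, -0.18 ± 0.34 and 0.10 ± 0.32. In dKO the sign turned under quantile normalization (-0.0040) and without WT replicate 1 (-0.13) or dKO replicate 1 (-0.059). Sp100, a nuclear body protein and the transcription partner with the highest mean, differed from WT by -0.08 to 0.04.

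The sensors include Ifih1, which encodes the double-stranded RNA sensor MDA5. It was at 5.07, 5.49 and 5.67 log2 CPM in WT, with 5.59, 5.74 and 5.08 in TIFAB_KO. The levels were 5.61, 5.88 and 5.64 in miR-146a_KO, with 6.19, 6.24, 6.41 and 5.39 in dKO. In dKO, 3 libraries were above all WT libraries and replicate 4 was inside their range. The log2 difference was 0.65 ± 0.22 in dKO minus WT (limma adjusted p 0.244) and 0.30 ± 0.24 in miR-146a_KO minus WT (0.680). Ddx60, a helicase that assists RNA sensing, was at 2.33, 2.67 and 2.79 in WT and above 2.79 in every dKO library (3.51, 3.13, 3.20 and 3.15), a difference of 0.65 ± 0.25. The miR-146a_KO libraries of Ddx60, at 2.81, 2.97 and 3.23, were also all above WT (0.40 ± 0.27), and those of TIFAB_KO, at 2.97, 3.58 and 2.72, overlapped it (0.49 ± 0.27). Eif2ak2, which encodes the kinase PKR and has the highest mean of this role, differed from WT by 0.09 ± 0.17, 0.22 ± 0.17 and 0.37 ± 0.16 in TIFAB_KO, miR-146a_KO and dKO. Over the 7 sensors the median log2 difference was 0.06, 0.23 and 0.35 in that order, and 6 of 7 were above 0 in each.

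Of the 15 antiviral effectors, 11, 10 and 10 were above 0 in TIFAB_KO, miR-146a_KO and dKO minus WT. Their medians were 0.09, 0.15 and 0.10, and 0 of the 15 had a knockout group apart from WT in any of the 3, against 5.21%, 15.5% and 8.9% of all genes higher and 3.31%, 6.4% and 3.62% lower. Mx2, a dynamin-like antiviral GTPase, had the smallest p of this role in dKO minus miR-146a_KO. It was at -0.68, 1.43 and 0.67 log2 CPM in WT, and TIFAB_KO libraries stood at -0.37, 0.29 and -0.15. With miR-146a deleted it was at 2.74, 1.27 and 2.57, and with both deleted at 1.73, -0.31, -0.66 and 0.49. The miR-146a_KO libraries were all above TIFAB_KO and overlapped both WT and dKO. The log2 difference was -1.88 ± 0.62 in dKO minus miR-146a_KO (limma adjusted p 1.00) and 2.27 ± 0.66 in miR-146a_KO minus TIFAB_KO (0.443), on 5 to 59 reads per library. Ifitm3, which blocks viral entry and has the highest mean of this role, lay between 7.57 and 8.15 in all 13 libraries. Samd9l, a growth-restraining antiviral gene, differed by 0.30 ± 0.15 in dKO minus miR-146a_KO.

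The ISG15 system attaches the ubiquitin-like protein ISG15 to other proteins, with Uba7 as its activating enzyme and Usp18 as the protease that removes it and also restrains the receptor. Isg15 was at 0.27, 2.15 and 1.07 log2 CPM in WT, while TIFAB_KO libraries had 1.06, 1.87 and 1.80. Those of miR-146a_KO had 0.49, 1.16 and 1.65 and those of dKO 0.96, 0.84, 0.93 and 1.23. WT alone spanned the values of all other libraries, from 14 to 43 reads. The log2 differences from WT were 0.41 ± 0.49, -0.07 ± 0.49 and -0.17 ± 0.46, and each changed sign under at least 1 alternative. Usp18 was at 1.61, 1.49 and 1.55 in WT, with 1.86, 2.47 and 2.67 in TIFAB_KO. The levels were 2.00, 1.83 and 2.47 in miR-146a_KO, with 1.98, 2.05, 0.74 and 2.13 in dKO. All libraries of both single knockouts lay above WT, and dKO replicate 3 was the lowest of the 13. The Usp18 differences were 0.79 ± 0.40, 0.55 ± 0.40 and 0.18 ± 0.37, with limma adjusted p of 0.995, 0.646 and 0.851. In dKO minus WT, Usp18 was at 0.51 without dKO replicate 3, and at 0.096, 0.071 and 0.044 without replicates 1, 2 and 4 in turn. In miR-146a_KO minus WT it was 0.37 without miR-146a_KO replicate 3.

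Parp14, an ADP-ribosyltransferase on chromosome 16 near Parp9 and Dtx3l, had the smallest p of this role in miR-146a_KO and dKO minus WT. It was at 5.03, 5.11 and 4.77 log2 CPM in WT and 4.90, 5.77 and 4.97 in TIFAB_KO. With miR-146a deleted it was at 5.64, 5.66 and 5.87, and with both deleted at 5.77, 5.63, 5.78 and 5.31. Every miR-146a_KO and dKO library was above every WT library, and in TIFAB_KO only replicate 2 was. The log2 difference from WT was 0.75 ± 0.21 in miR-146a_KO (limma adjusted p 0.404), 0.65 ± 0.20 in dKO (0.216) and 0.24 ± 0.21 in TIFAB_KO (0.999). Trim30a, a ubiquitin ligase gene with near copies beside it, was at 5.75, 5.96 and 6.04 in WT and 6.55, 6.92, 6.51 and 5.81 in dKO, where replicate 4 again fell inside the WT range. The miR-146a_KO libraries, at 6.09, 6.50 and 6.08, were all above WT by a log2 difference of 0.30 ± 0.22, and TIFAB_KO overlapped WT. The Trim30a difference was 0.53 ± 0.20 in dKO minus WT (limma adjusted p 0.278) and 0.57 ± 0.20 in dKO minus TIFAB_KO (0.186). Trim25, a ligase that activates RIG-I and has the highest mean of this role, lay between 6.99 and 7.31 in all libraries.

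**Figure D3:**
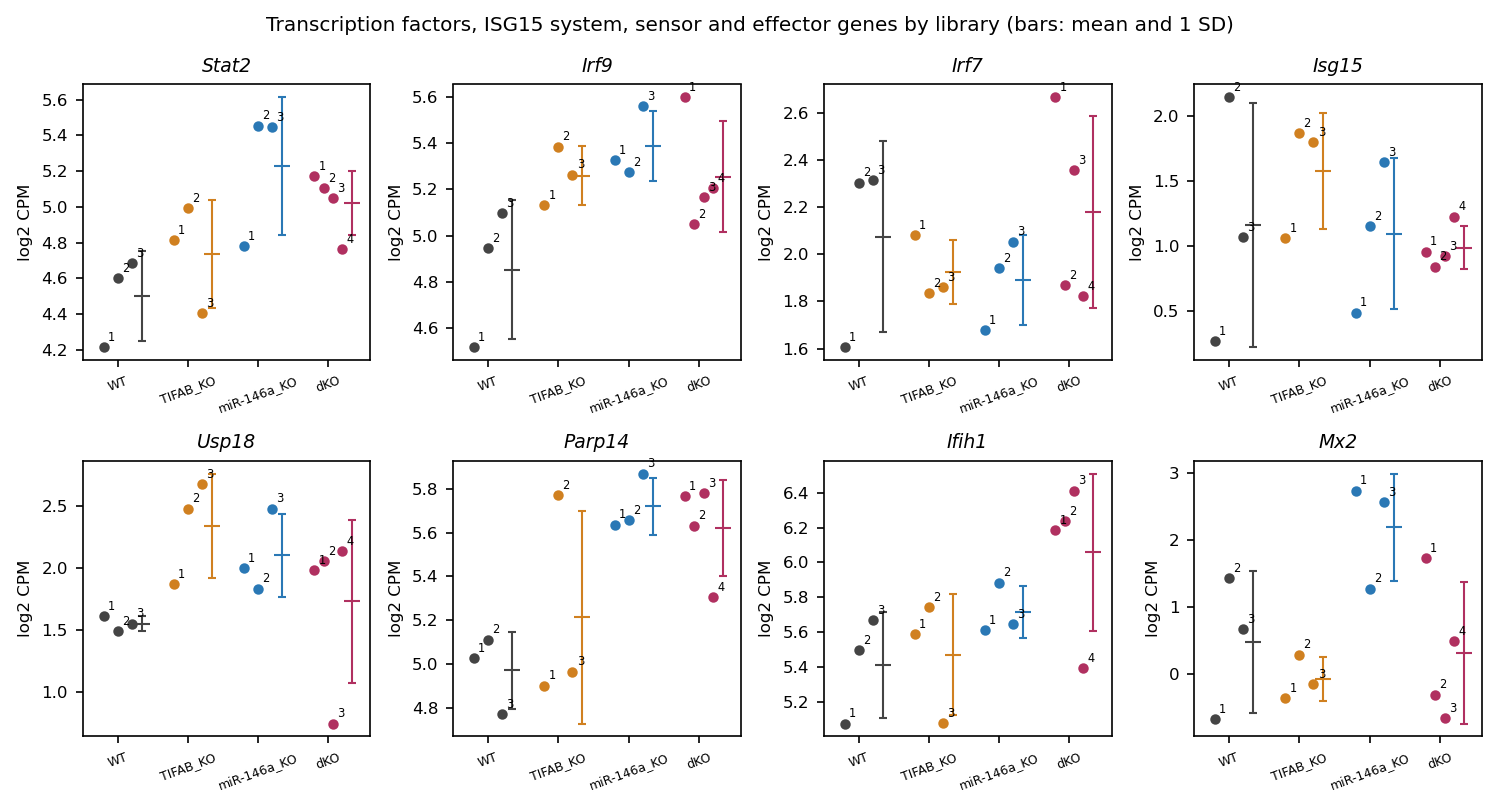
Log2 CPM of 8 members of the other roles in each library (points, numbered by replicate), with the group mean and 1 SD. Parp14 separates miR-146a_KO and dKO from WT, while Irf7 and Isg15 overlap WT in all groups.

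The antigen presentation genes stayed close together. B2m, which encodes the light chain of MHC class I, was at 11.56 to 11.66 log2 CPM in WT, and TIFAB_KO libraries stood at 11.50 to 11.57. With miR-146a deleted it was at 11.59 to 11.68, and with both deleted at 11.18 to 11.75. Its log2 differences from WT were -0.09 ± 0.17, 0.03 ± 0.17 and -0.14 ± 0.16. Tap1 and Tapbp, which take part in the supply and loading of peptides for MHC class I, differed from WT by at most 0.24.

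**Figure D4:**
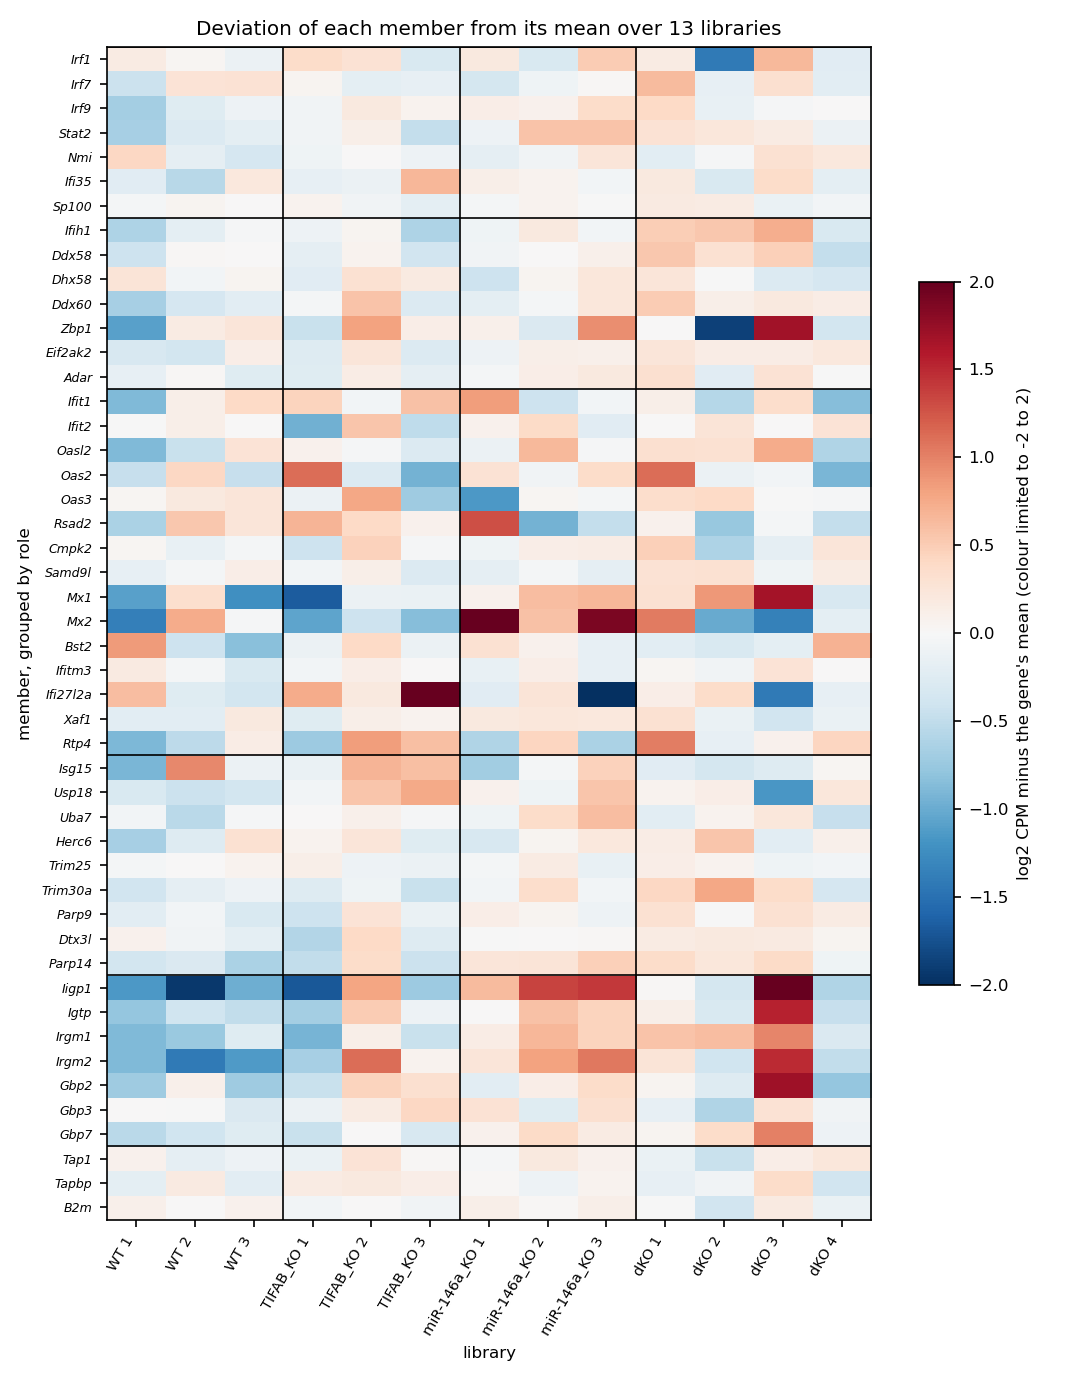
Deviation of each of the 48 members (rows, grouped by role) from its own mean over the 13 libraries (columns), in log2 CPM, with colours limited to -2 and 2. Most GTPase rows are low in WT and high in miR-146a_KO, and all except Gbp3 are highest in dKO replicate 3.

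Loss of both genes was next compared with loss of each alone. In dKO minus TIFAB_KO, 30 of 48 members (62.5%, all genes 60.1%) were above 0 with a median of 0.11 (all genes 0.09). There, 5 members were higher and 0 lower at an unadjusted p under 0.05, against 12.6% and 5.93% of all genes. For 0 members did the libraries of these groups not overlap, against 6.82% of all genes higher and 3.84% lower. The count higher was 11 without TIFAB_KO replicate 2, and 3 without TIFAB_KO replicate 1, TIFAB_KO replicate 3 or dKO replicate 2. With TMM the median was 0.005. In dKO minus miR-146a_KO, 23 of 48 (47.9%, all genes 47.8%) were above 0. The members' median was -0.02 (all genes -0.01), which took either sign when 1 library was left out (-0.09 to 0.05). There 0 members were higher at an unadjusted p under 0.05 and 1, Mx2, was lower, against 0.868% and 1.06% of all genes. The count higher was 3 without dKO replicate 4 and 4 with library quality weights. In miR-146a_KO minus TIFAB_KO, 31 (64.6%, all genes 62.0%) were above 0. The members' median was 0.08 (all genes 0.10), which was -0.03 with TMM. At an unadjusted p under 0.05, 5 members were higher and 1 lower there, against 8.4% and 2.54% of all genes. The count higher was 8 without TIFAB_KO replicate 2, 3 without miR-146a_KO replicate 2, and 2 without TIFAB_KO replicate 1, TIFAB_KO replicate 3 or miR-146a_KO replicate 3.

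The interaction contrast, which is dKO less both single knockouts with WT added back, asks whether the difference in dKO departs from the sum of the single knockouts. It was below 0 for 33 of 48 members, against 5789 of 11867 tested genes, with a median of -0.26 (all genes 0.01). All 7 GTPases were below 0, with a median of -0.51. Also below 0 were 11 of 11 monocyte and dendritic cell markers (median -0.41) and 5 of 6 tested macrophage markers (median -1.37). So were 3 of 3 tested B cell, 5 of 7 late granulocyte and 3 of 4 T and NK cell markers. Of 10 stem cell and multipotent progenitor markers, 6 were above 0, and 3 of 4 tested plasmacytoid dendritic cell markers were. Of 10 LK progenitor markers, 6 were above 0. At an unadjusted p under 0.05, 2 of these 10 were higher and 3 lower (limma, 1.68% and 2.55% of all genes). The members' median was -0.061 without TIFAB_KO replicate 2 and -0.11 without dKO replicate 4, and the GTPase median was -0.97 without dKO replicate 3 and -0.29 without TIFAB_KO replicate 2. Irgm2 had -1.80 ± 0.63 (limma adjusted p 0.987, unadjusted 0.0105) and Usp18 had -1.16 ± 0.54 (unadjusted p 0.0452, limma), the 2 members lower at an unadjusted p under 0.05, against 2.55% of all genes. Higher there were 0 members, against 1.68% of all genes, or 3 without TIFAB_KO replicate 2. Irf9 had -0.54 ± 0.26 and Uba7 -0.63 ± 0.31.

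Markers of LK progenitors and of other blood cells also differed between libraries, and their sums are given here beside the GTPases. LK progenitor markers (10 of 10 rows, none at 0) summed to 10123 to 15366 CPM in WT and 16530 to 18446 in TIFAB_KO. They summed to 12110 to 14608 in miR-146a_KO and 10659 to 14913 in dKO. In TIFAB_KO minus WT, 3 of the 10 were higher and 3 lower at an unadjusted p under 0.05 (limma, 2.99% and 2.12% of all genes). In dKO minus TIFAB_KO, 3 were higher and 4 lower (12.6% and 5.93%). In both, 0 were called. Macrophage markers (11 of 12 listed were rows, none at 0 in any group) summed to 28.4 to 42.6 CPM in WT, 32.8 to 117 in TIFAB_KO, with 42.9 to 60.4 for miR-146a_KO and 51.9 to 101 for dKO. Late granulocyte markers (10 of 10 rows, Mmp9 at 0 in TIFAB_KO) summed to 47.7 to 92.4, 60.8 to 239, 79.9 to 128 and 46.1 to 568 CPM in the same order. Monocyte and dendritic cell markers (11 of 11 rows, none at 0) summed to 367 to 489, 507 to 598, 539 to 618 and 391 to 874 CPM. The highest granulocyte and monocyte sums were in dKO replicate 3, which also had the highest GTPase values, at a median deviation of 1.49. TIFAB_KO replicate 2, highest of its group for 6 of 7 GTPases, had 103 CPM of macrophage and 239 CPM of granulocyte markers, and TIFAB_KO replicate 1, lowest for 7 of 7, had 32.8 and 60.8. On the other side, dKO replicate 4 had 93.1 CPM of macrophage markers and was the lowest dKO library for 6 of 7 GTPases. TIFAB_KO replicate 3 had the highest macrophage sum of the 13 libraries (117 CPM), with a GTPase median deviation of -0.10. WT replicate 1 had the highest macrophage and granulocyte sums of WT (42.6 and 92.4 CPM). Its GTPase median deviation, -0.77, was the lowest of the 13. Plasmacytoid dendritic cell markers, from the main type I interferon-producing cell (8 of 8 rows), summed to 97.2 to 173 CPM, with Pacsin1 at 0 reads in TIFAB_KO and Klk1 at 0 in miR-146a_KO, and both at 0 in dKO. Stem cell and multipotent progenitor markers summed to 390 to 622 CPM, lowest in dKO replicate 3. B cell markers (8 of 8 rows, Ms4a1 at 0 in TIFAB_KO) summed to 25.2 to 34.8 CPM in miR-146a_KO, above the 13.4 to 18.9 of WT and every library of the other groups. The 3 of these markers that were tested had a median log2 difference of 1.98 in miR-146a_KO minus WT. There, 2 were higher at an unadjusted p under 0.05 (limma, 7.23% of all genes) and 0 were called. Of 6 tested macrophage markers, 4 were higher at an unadjusted p under 0.05 in TIFAB_KO minus WT (limma, 2.99% of all genes). Their median was 1.64 there, and 0.75 and 0.80 in miR-146a_KO and dKO minus WT. None of the 6 was called. T and NK cell markers (10 of 10 rows, none at 0) summed to 180 to 324 CPM, with the highest sums in TIFAB_KO replicate 2 (324) and dKO replicate 3 (308). The part of these cells in the GTPase values was not tested. In sorted bulk RNA, a change in how many cells of a type are present cannot be told apart from a change in RNA per cell.

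**Figure D5:**
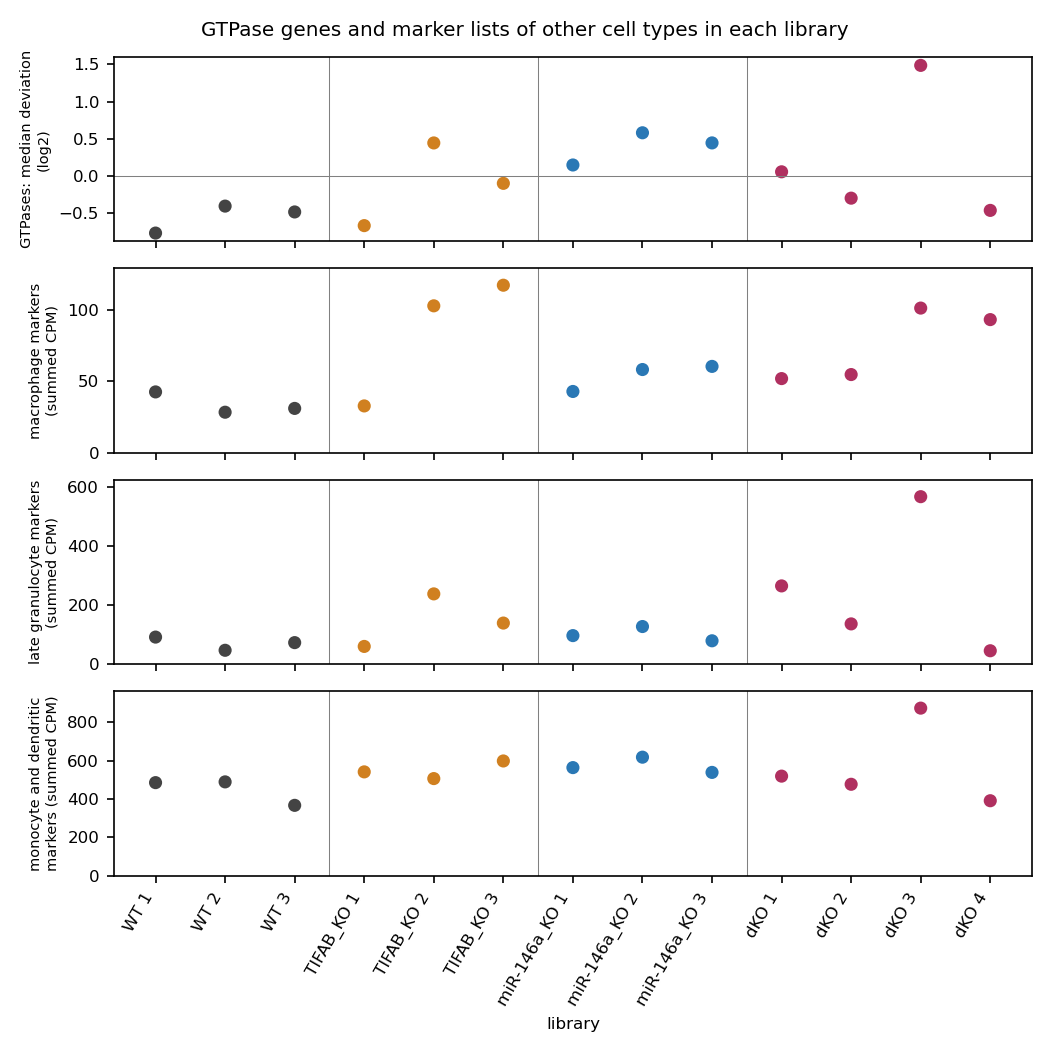
Median deviation of the 7 GTPases (log2) and summed CPM of macrophage, late granulocyte, and monocyte and dendritic cell markers in each of the 13 libraries. dKO replicate 3 is highest in the GTPase, granulocyte and monocyte panels, at 1.49, 568 CPM and 874 CPM, while dKO replicate 4 is high only for macrophage markers.

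Genes upstream of the members were read from lists by role. Of 11 interferon ligand genes 0 reached the minimum for testing, with 0 to 14 reads per library each, and Ifne and Ifnl3 had 0 reads in every library, which allows at most 3 reads, or 0.235 to 0.383 CPM. Of 11 receptor, JAK and STAT genes 10 were tested with limma, with 0 called. At an unadjusted p under 0.05, 0, 2 and 2 were higher in TIFAB_KO, miR-146a_KO and dKO minus WT and 1, 0 and 0 lower, against 2.99%, 7.23% and 9.7% of all genes higher and 2.12%, 2.3% and 4.36% lower. In miR-146a_KO minus WT all 10 were above 0 (median 0.12), and in dKO minus WT all 10 were (median 0.21). Ifnar1, a chain of the type I receptor, was at 6.21 to 6.42 log2 CPM in WT, 6.68 to 6.86 in miR-146a_KO and 6.46 to 6.89 in dKO. Both groups without miR-146a were above WT, by 0.47 ± 0.15 and 0.36 ± 0.14, with limma adjusted p of 0.408 and 0.278. Ifnar2, the other chain, differed from WT by 0.12, 0.04 and 0.04 in TIFAB_KO, miR-146a_KO and dKO.

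Of 17 genes that lead to interferon production all were tested and 0 called, with medians of 0.11, 0.17 and 0.18 in TIFAB_KO, miR-146a_KO and dKO minus WT. At an unadjusted p under 0.05, 2, 5 and 4 were higher and 0 lower, against the same shares of all genes. Tlr3, a receptor for double-stranded RNA, differed by 1.55 ± 0.47 in miR-146a_KO (limma adjusted p 0.408) and 1.24 ± 0.44 in dKO (0.254). Mb21d1, which encodes the DNA sensor cGAS, differed by 0.60 ± 0.20 in miR-146a_KO, and Myd88, the adaptor of most Toll-like receptors, by 0.58 ± 0.20 in TIFAB_KO. Of 11 inhibitors 10 were tested and 0 called, with medians of -0.11, -0.03 and -0.05, and 3, 4 and 4 of the 10 above 0. At an unadjusted p under 0.05, 0, 1 and 1 of them were higher and 0 lower, again against those shares.

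A further list of 62 interferon-stimulated genes outside the 49 had 49 tested and 0 called. Its medians were 0.12, 0.10 and 0.13 in TIFAB_KO, miR-146a_KO and dKO minus WT. At an unadjusted p under 0.05, 3, 7 and 6 were higher and 1, 1 and 2 lower, against 2.99%, 7.23% and 9.7% of all genes higher and 2.12%, 2.3% and 4.36% lower. The higher ones included Tgtp1, another IRG-family GTPase, with 2.83 ± 0.86 in miR-146a_KO (limma adjusted p 0.408) and 3.09 ± 0.81 in dKO (0.175), and Nlrc5, the activator of MHC class I genes, with 0.93 ± 0.28 in miR-146a_KO. Ifitm2, a neighbour of Ifitm3, was among the lower ones, at -0.98 ± 0.24 in dKO (limma adjusted p 0.155). Ly6a, despite being selected against, was read in every library and differed by -0.64 ± 0.60, -0.46 ± 0.60 and 0.22 ± 0.56.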

How the data were processed

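RNA from LK cells was amplified (Ovation RNA-Seq System v2), made into Nextera XT libraries and sequenced, per the labels' protocols. Per the submitters' processing notes, TopHat, featureCounts and limma were used with mm10. The sources used here do not give versions, strand setting or treatment of shared reads. The table deposited by the authors holds log2 CPM of the voom form (0.5 read added per gene, 1 per total). Whole reads recovered from it were within 0.01 read for 100% of values, with totals of 7.83 to 12.8 M reads.

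The main test was limma 3.58.1 (R 4.3.3) on the deposited log2 CPM of all 13 libraries, 1 mean per group, 9 residual degrees of freedom, variance trend, 11867 genes with a mean of at least 0, Benjamini-Hochberg adjusted over all of them within each comparison and called under 0.05. Errors of log2 differences are SE. Scripts were tested on simulated data. Alternatives changed the filter, added reads, scaling, variance model, weights, groups fitted and replicate block, and left out each library. Leaving out TIFAB_KO replicate 3 with dKO replicate 3, and applying the alternatives to the counts at an unadjusted p and to the GTPase medians, were chosen after seeing the data.

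The members and gene lists were chosen with earlier results of these data known. Genes were named by rule: the 4 members of smallest p in each comparison against WT and in the interaction, 2 in the others, the member of highest mean of each role, and Isg15, Usp18, Irf7, Irf9 and Stat2; of the lists, the 2 of smallest p per comparison against WT, with Ifnar1, Ifnar2 and Ly6a. A further gene that the rule names is not reported here. Iigp1, Igtp, Ifih1, Trim30a, Gbp2, Gbp3, Tap1 and Tapbp were added after their values were seen. Positions are from GENCODE M21 and promoters from RefSeq. Figures were drawn with matplotlib 3.10.9.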

Additional observations from a re-analysis of the deposited data

Results flagged for a closer look

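In 2 of 29 sets of 4 dKO values checked, the end library's gap over the range was above Dixon's critical value. Chance flags about 1 in 20 sets, which is near 2 of 29. That rate does not hold for Iigp1, Igtp, Ifih1 and Trim30a, which were added after their values were seen. Usp18 was at 0.74 log2 CPM in dKO replicate 3, while the other dKO libraries were at 1.98 to 2.13, a ratio of 0.889. Its reads were few, 14 in that library and 33 to 51 in the other dKO libraries. Iigp1 was at 4.28 log2 CPM in the same library, with the others at 0.49 to 1.11, a ratio of 0.837. The library was thus low for one interferon-induced gene and high for another.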

How the results depend on the processing

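The 0 calls depended on library quality weights, on which groups were fitted and on dKO replicate 4. In miR-146a_KO minus WT, library quality weights gave 4 called members (1.79% of all genes called) and fitting only the groups compared gave 5 (0.75%); all 5 were GTPases or Parp14. In dKO minus WT, quality weights gave 7 (6.67%), the replicate block 4 (2.41%), and leaving out 1 library 0 to 4. In dKO minus TIFAB_KO, the block gave 2 (1.23%) and leaving out 1 library 0 to 3; the 4 and the 3 came without dKO replicate 4 (2.83% and 2.34%). Replicate numbers did not pair the libraries (deviations of same-numbered libraries correlated at -0.20 to 0.23). The block drops dKO replicate 4, which has no partner, so it gives the same differences as leaving that library out. The members' median in the interaction was -0.11 with the block and -0.33 to -0.061 with 1 library left out. Some signs turned. The GTPase median in dKO minus TIFAB_KO, 0.31, was -0.12 without dKO replicate 3. Isg15, at 0.41, was -0.0024 in TIFAB_KO minus WT with quality weights. With 1 library left out it ranged from -0.032 (without WT replicate 1) to 0.90 there, from -0.51 to 0.42 in miR-146a_KO minus WT (above 0 without WT replicate 2 or miR-146a_KO replicate 1) and from -0.62 to 0.32 in dKO minus WT (above 0 without WT replicate 2). Irf7 in dKO minus WT was -0.0040 with quantile normalization and -0.13 to 0.22 with 1 library left out, below 0 without WT replicate 1 or dKO replicate 1. The cause was not tested. Every other alternative run left 0 members called. The planned count model (edgeR) was left out, since the deposited unit is log2 CPM, although whole reads were recovered. Voom precision weights on those reads gave 0 called members in every comparison. Genes with few reads, such as Mx2, Iigp1, Isg15 and Usp18, are limited by depth.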
